A study of Mus musculus with 151 samples.

Results

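P30_WT IHCs are single inner hair cells (IHCs) picked from the cochlea of mice at postnatal day 30, and the 50 cells whose labels place them in this group were taken from the 151 cells of the series. Their genotype was vGlut3-P2A-iCreER/+; Ai9/+ on the C57BL/6 strain, and the 55 P14_WT IHCs used for comparison had the same genotype and strain but were picked at postnatal day 14. The other 46 cells, P14_iOHCs, carried vGlut3-P2A-iCreER/+; Tbx2 flox/-; Ai9/+ and were used here only as a reference for outer hair cell (OHC) genes. Mice of each group received tamoxifen in the first days after birth. An inducible Cre made from the *Slc17a8* (vGlut3) locus then switched on the Tdtomato reporter of Ai9. Cells were picked by hand for Tdtomato, so activity of the *Slc17a8* locus was part of how they were chosen, and 1 copy of that locus was modified in every cell. Mice of both sexes were used. The labels do not say which mouse a cell came from, so each group is 1 sample in what follows. Errors are SDs over cells, and no tests between groups were made.

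IHCs are the sensory cells that pass sound to the auditory nerve. Deflection of their stereocilia opens mechanotransduction channels, the cell depolarizes, and calcium entering through channels at the ribbon synapse triggers release of glutamate through otoferlin. Glutamate is loaded into vesicles by the transporter vGlut3, which OHCs lack. OHCs instead carry the motor protein prestin and amplify vibrations mechanically. The transcription factor Tbx2 is required for IHCs to keep their identity. By P30 hearing is mature, whereas P14 lies just after its onset.

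Levels are given as CPM, the reads on a gene divided by all reads on genes in that cell and multiplied by 1000000. Values after ± are SDs over the 50 cells unless another number is given. CPM measures a share of reads and grows with gene length. TPM, which also divides by length, is therefore given where levels of different genes are ordered per length. The most abundant genes were ranked by mean CPM. A gene was called detected in a cell with at least 1 count. A limit of 3 counts, which is what a count of 0 allows, corresponded to 0.273 CPM per cell on average. The reads carry no molecular barcodes, and such limits and the Poisson intervals given later cover counting error alone.

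Several libraries stood apart. The 23 cells with numbers 1 to 23 had totals from 5692841 to 9484663 counts, and the 27 cells with numbers 24 to 50 had totals from 13282457 to 25035444. These are called the lower and the upper set. Mitochondrial genes took a median of 11.3% (6.69 to 37.6%) of counts in the lower set and 6.55% (4.51 to 12.1%) in the upper set. Cell 23 had 37.6% mitochondrial counts, the fewest detected genes (6213) and the lowest mean correlation with the other cells (0.303, against 0.353 for the next, cell 11). Cell 7 had the most detected genes, 15135. By the X-inactivation RNA *Xist* and 4 Y-linked genes, with 10 CPM as the limit, 32 cells had *Xist* only, 15 had the Y-linked genes only, cell 29 had both, and cells 11 and 14 had neither. No caller of doublets was run. Some correlations and counts of genes are also given without single cells, whereas the means and SDs include these cells. The 1225 pairs of libraries included 0 identical pairs, and the correlation of their log2(CPM + 1) had a median of 0.379 (0.175 to 0.493).

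All 5 IHC markers were detected in all 50 cells. Over all genes with a count 4.91% were, and of genes averaging at least 50 CPM 36.1% were. *Otof*, which encodes otoferlin, the calcium sensor of release, was at 3704 ± 1028 CPM (SD, n = 50 cells), with 2176 in the lowest cell, a median of 3623 and 7021 in the highest. *Atp2a3*, a calcium pump of the endoplasmic reticulum, was at 1463 ± 441 CPM (SD, n = 50 cells), from 799 through a median of 1382 to 2556. *Slc17a8* ranged from 387 through a median of 1280 to 2754 CPM. These 3 genes varied the least of the 5, with coefficients of variation (CV, the SD divided by the mean) of 0.278, 0.301 and 0.401. *Slc7a14*, a lysosomal transporter gene, ranged from 16.9 through a median of 516 to 1421 CPM. *Tbx2* ranged from 3.29 through a median of 167 to 420 CPM, and its lowest value was that of cell 23. No cell lacked reads of any marker. *Slc7a14* was under 25 CPM in cell 27 and 1 other cell, and *Tbx2* in cell 23 and 1 other, while the remaining 48 cells were above. Per length the order was *Otof* (mean 1077 TPM), *Slc17a8* (645), *Atp2a3* (633), *Slc7a14* (128) and *Tbx2* (122), and the last pair, like *Slc17a8* and *Atp2a3*, differed by far less than their spread.

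**Figure D1:**
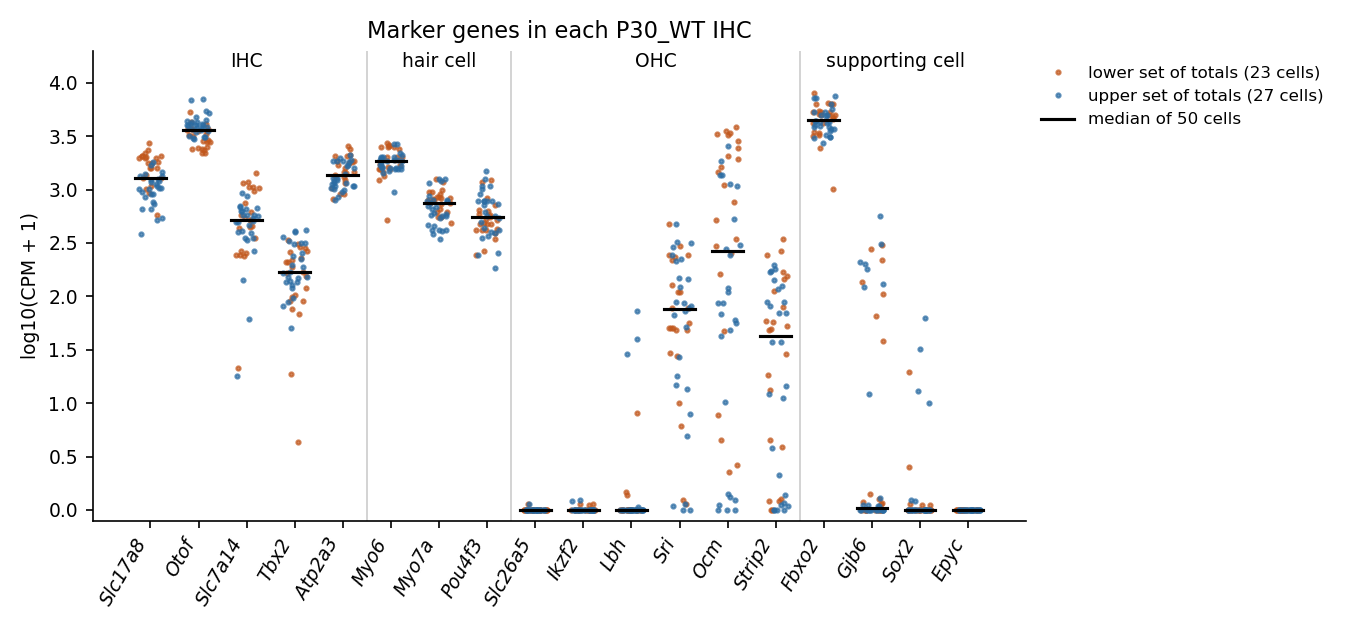
Levels of 18 marker genes in each P30_WT IHC, as log10(CPM + 1) on the vertical axis, with points for the cells of the lower and upper set of total counts and a bar at the median of the 50 cells. The 5 IHC markers lie above 0 in every cell, *Slc26a5* and *Ikzf2* lie at or near 0, and *Ocm* spreads over the range from 0 to 3866 CPM.

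The upstream sequences of *Slc17a8* and *Atp2a3* are shown because both held the T-box half-site, the motif bound by the family of factors that *Tbx2* belongs to. They are the 250 bases before the RefSeq start of each gene on GRCm38.p6, 5′ to 3′ on the strand of the gene, with the half-site in capitals. The first lies at chr10:89621250-89621499 on the minus strand and the second at chr11:72960919-72961168 on the plus strand.
Slc17a8: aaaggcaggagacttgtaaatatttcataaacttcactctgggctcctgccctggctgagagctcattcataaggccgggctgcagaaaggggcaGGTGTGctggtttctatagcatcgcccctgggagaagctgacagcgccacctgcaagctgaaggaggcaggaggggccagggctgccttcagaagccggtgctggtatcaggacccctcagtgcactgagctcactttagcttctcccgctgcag
Atp2a3: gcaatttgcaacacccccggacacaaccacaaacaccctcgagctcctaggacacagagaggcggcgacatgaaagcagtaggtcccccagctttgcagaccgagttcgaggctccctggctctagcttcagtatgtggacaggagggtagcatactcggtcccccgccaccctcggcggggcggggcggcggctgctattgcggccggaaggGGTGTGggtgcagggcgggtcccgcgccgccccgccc
The half-site GGTGTG, searched on both strands, began 155 bases before the start of *Slc17a8* and 37 bases before that of *Atp2a3*. It was in 2 of the 3 IHC markers with an entry in the RefSeq table, *Slc7a14* being the one without it. It was in 4 of 8 calcium buffer and pump genes with an entry, and in 5347 of all 32851 windows of 250 bases (16.3%). Those 4 include *Atp2a3*, already counted above, and *Ocm*, whose RefSeq start differs from its gene in the GENCODE M21 annotation. A match of 6 bases is a description of the sequence and not a binding site.

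OHC genes separated into those that were nearly absent and those that were not. *Slc26a5* (prestin) had reads in 2 of the 50 cells, with at most 0.140 CPM. *Ikzf2*, a transcription factor gene of OHCs, had reads in 5 cells, with at most 0.238 CPM. *Lbh* had reads in 7 cells, up to 72.2 CPM. *Sri* and *Strip2* were at 113 ± 121 and 68.7 ± 81.7 CPM (SD, n = 50 cells) and were detected in 48 and 44 cells. *Ocm*, which encodes oncomodulin, the calcium buffer known from OHCs, had a mean of 891 ± 1163 CPM (SD, n = 50 cells). It was the most abundant gene not detected in all cells, with reads in 47. Its median was 265 and its highest value 3866 CPM, so most IHCs were below the mean and a minority far above it. In the P14_iOHCs the mean of *Ocm* was 37457 CPM.

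Of 10 markers of hair cells in general, 7 were detected in all 50 cells and 9 had a mean of at least 50 CPM. Over the 28002 genes with a count these numbers were 1374 and 3541, and 36.1% of the 3541 were in all cells. *Myo6*, an unconventional myosin, was at 1852 ± 447 CPM, and *Pou4f3*, the transcription factor that hair cells need to survive, at 617 ± 291 CPM (SD, n = 50 cells). *Lhx3* was the least often detected, found in 30 cells with a median of 1.81 CPM. Among 18 supporting-cell markers, 17 had a count in some cell and *Epyc* was at 0 in all. Of the 18, 14 were in fewer than 25 cells, against 20250 of the 28002 genes with a count. The exception was *Fbxo2*, at 4645 ± 1397 CPM and detected in all 50 cells. Without *Fbxo2* the summed level of this list ranged from 0 to 841 CPM per cell, with a median of 90.3, against 7256 ± 1448 CPM (SD, n = 50 cells) for the 5 IHC markers. *Gjb2* and *Gjb6*, the connexin genes of supporting cells, were detected in 30 and 25 cells, up to 317 and 560 CPM. The median of *Gjb6* was 0.0399 CPM, so its mean came from a minority of cells. The part of these reads in the results below was not tested. None of the 7 glia, 7 fibroblast, 5 blood or 8 immune cell markers reached a mean of 50 CPM. The summed levels of these lists had medians of 0, 38.5, 7.10 and 0.0355 CPM per cell, and highest values of 45.8, 489, 64.6 and 115. *Mag*, *C1qa*, *C1qc* and *Cx3cr1* were at 0 in all 50 cells. Of 8 neuron markers only the neurofilament genes *Nefl* (151 ± 109 CPM) and *Nefm* (98.9 ± 86.4 CPM; SD, n = 50 cells) passed 50 CPM. *Nefl* had a count in every cell, whereas *Prph* was at 0 and *Tubb3* had reads in 9 cells.

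A few genes took a large share of the reads. The 10 most abundant genes of the group took 16.5 ± 2.82% (SD, n = 50 cells) of the counts, the 100 most abundant 33.4 ± 3.10%, and the 1000 most abundant 62.4%. Reads were found for 28002 genes in at least 1 cell, of which 14032 had a mean of at least 1 CPM, 3541 of at least 50 and 74 of at least 1000. *Calm2*, which encodes calmodulin, led with 24324 ± 5285 CPM (SD, n = 50 cells). *Calm3*, which encodes the same protein, was at 225 ± 101 CPM. Per length, *Calm2* (38004 TPM) was above *Calm3* (214 TPM). *Calb2*, which encodes the calcium buffer calretinin, was at 13666 ± 5086 CPM and 18068 TPM. Other leading genes included *Skp1a* (12948 CPM), part of the SCF ubiquitin ligase, and *Fbxo2*, an F-box protein gene whose product joins the same kind of ligase. *Fth1* (ferritin heavy chain, 5976 CPM), *Hsp90aa1* (a chaperone, 5730), the nuclear RNA *Malat1* (5248), *Gpx2* (a glutathione peroxidase, 5171), *Acbd7* (4610), *Ubb* (ubiquitin, 4064) and *Selenow* (a selenoprotein, 3958) followed. Mitochondrial genes and the ribosomal RNA entry *CT010467.1* (16069 CPM) were also among the first 20. Of these 20 genes, 15 were also among the first 20 per length. The per-length list gained *S100a1* (9816 TPM), a calcium-binding protein gene, *Gm30191* (8579 TPM), the mitochondrial *mt-Rnr1* and *mt-Nd6*, and *Gm23935* (54787 TPM), an annotated miRNA gene of 57 bases, whose value per length rests on that short annotation.

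Genes of the ribbon synapse were present at very unequal levels. Of 17 genes, 7 were detected in all cells and 11 had a mean of at least 50 CPM, against 1374 and 3541 of the 28002 genes with a count. *Cabp2*, which keeps the calcium channel of the ribbon open, was the most abundant per length (3911 TPM, and 2294 ± 648 CPM), above *Otof* (1077 TPM). *Cacna1d*, the pore of that channel, was at 262 ± 181 CPM and *Rims2*, an active zone scaffold, at 265 ± 201 CPM. *Ctbp2*, whose locus makes the ribbon protein ribeye, was at 91.5 ± 54.6 CPM in all cells. *Bsn*, which encodes the scaffold bassoon, was at 14.6 ± 34.8 CPM and in 25 cells. Of the SNARE genes, *Snap25* (187 ± 138 CPM) and *Vamp2* (181 ± 108 CPM) were detected in 49 and 50 cells.

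Of 13 calcium buffers and pumps, 7 were detected in all cells, against 4.91% of all genes with a count. Among genes averaging at least 50 CPM, the share in all cells was 36.1%. *Atp2b1*, a plasma membrane calcium pump, was at 710 ± 245 CPM, above *Atp2b2*, the pump of stereocilia, at 49.1 ± 48.2 CPM (108 and 8.83 TPM). *Pvalb* (parvalbumin) ranged from 0 through a median of 466 to 2734 CPM. *Calb1* (calbindin) had reads in 6 cells, with a highest value of 121 CPM.

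Of 18 mechanotransduction and Usher genes, 8 were detected in all cells and 12 had a mean of at least 50 CPM. Over the 28002 genes with a count these numbers were 1374 and 3541, and 36.1% of the 3541 were in all cells. *Tmc1*, the pore of the mature channel, was at 456 ± 199 CPM (SD, n = 50 cells) in all cells, and *Tmc2*, which is used early in development, was at 0 in all. *Cib2*, for a subunit of the transduction complex, was at 4817 TPM (3009 ± 705 CPM), and *Cib3* at 0.197 TPM, with reads in 6 cells. *Lhfpl5*, another channel subunit, was at 1142 ± 373 CPM and *Ush1c* (harmonin) at 1115 ± 506 CPM. Of 22 genes for the actin core and myosins of stereocilia, 16 were detected in all cells and 18 passed 50 CPM. Within gene pairs of this list, *Fscn2* was at 160 ± 130 CPM and *Fscn1* had reads in 6 cells, *Myo3a* was at 208 ± 122 CPM and *Myo3b* had reads in 2. *Grxcr2* (1005 TPM) was above *Grxcr1* (275 TPM) per length.

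Potassium channel genes differed in the same way. *Kcna10* was at 1343 ± 523 CPM and *Kcnma1*, the large-conductance channel of mature IHCs, at 328 ± 146 CPM (SD, n = 50 cells), both in all cells. *Lrrc52*, which encodes an accessory protein of that channel, was at 271 ± 138 CPM. *Chrna9* and *Chrna10*, the subunits of the efferent acetylcholine receptor, were detected in 37 and 15 cells. Of 16 hair cell transcription factors, *Pou4f3*, *Gata3* (449 ± 200 CPM), *Tbx2*, *Gfi1* (148 ± 98.6 CPM) and *Lmo4* (114 ± 89.1 CPM) were among those in all cells. *Atoh1* and *Insm1*, which act while hair cells differentiate, and *Esrrb* each had reads in 1 cell, with at most 0.111, 0.234 and 0.125 CPM. Of 16 clock genes, 3 (*Per3*, *Cry2* and *Nr1d1*) were in all cells, against 1374 of the 28002 genes with a count.

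Detection in all 50 cells was found for 1374 genes, 4.91% of the 28002 with a count. They included 1281 protein-coding genes and 69 pseudogenes, and their mean CPM had a median of 208. Of the 3541 genes averaging 50 CPM or more, 1279 (36.1%) were in all cells, and 95 of the 1374 lay below that mean. When each cell was thinned to 5692841 counts, the smallest total, 1255 genes remained in all cells. A further 530 genes were missing from 1 cell, 126 of them from cell 23, and without cell 23 the number in all cells was 1500. By list, 61 of 81 nuclear genes for oxidative phosphorylation and 65 of 92 cytosolic ribosomal protein genes were detected in every cell. Only 3 of the 3541 were in fewer than 25 cells, namely *Gm1113* (23 cells), *Eif2s3y* (24), which is Y-linked, and *Xlr3b* (19), which is X-linked.

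Spread between cells depended strongly on the level. Over these 3541 genes the median CV was 0.805, and it was 0.988 for 1709 genes between 50 and 100 CPM, 0.686 for 1344 genes up to 300, 0.438 for 414 genes up to 1000 and 0.331 for 74 genes above. A CV over 1 was found for 873 genes (24.7%) and a CV under 0.3 for 42. The steadiest genes included *CT010467.1* (0.190), *Calm2* (0.217), *Acbd7* (0.229), *Ubb* (0.234), *Cib2* (0.234), *Eif1* (0.238) and *Myo6* (0.241). *Hsp90aa1* (0.267), *Selenow* (0.260) and *Cox8a* (0.271) were also among the 20 lowest.

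**Figure D2:**
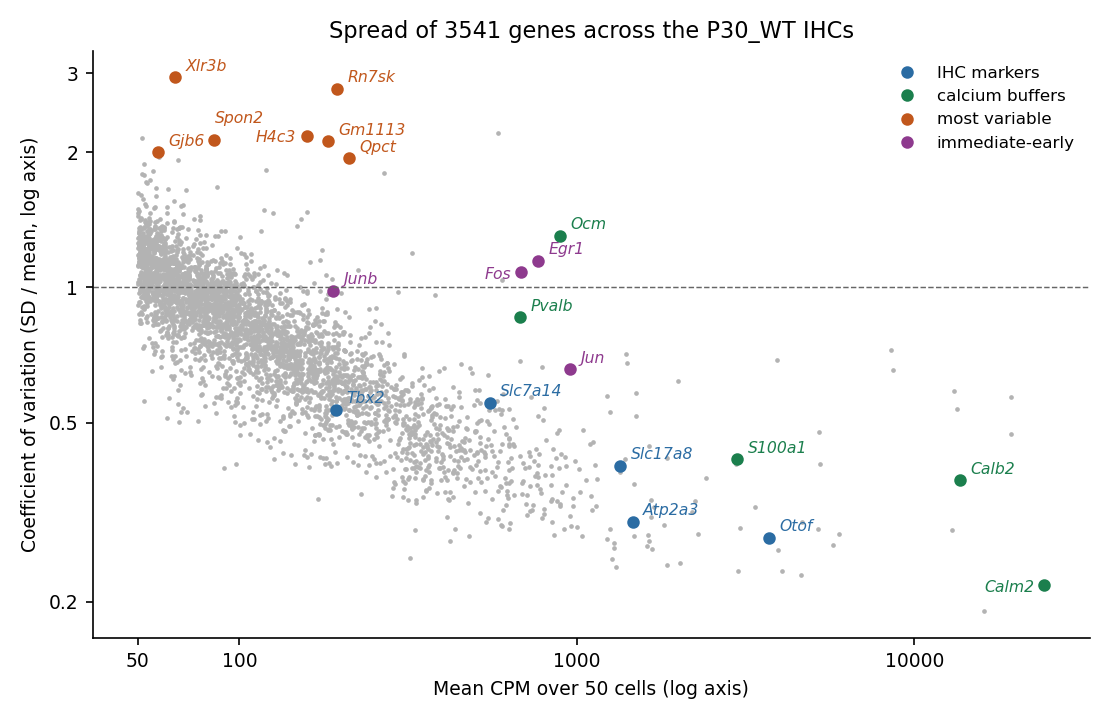
Coefficient of variation across the 50 P30_WT IHCs (vertical, log scale) against mean CPM (horizontal, log scale) for 3541 genes, 1 point per gene, with named genes marked. The cloud falls from a median of 0.988 at 50 to 100 CPM to 0.331 above 1000 CPM, and *Xlr3b*, *Rn7sk*, *Gm1113* and *Ocm* lie above it.

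Of the 20 most variable genes, *Xlr3b* (CV 2.93) reached 10 CPM in the fewest cells, 6, with 832 CPM in cell 46. *Rn7sk*, a small nuclear RNA, was in all cells with a median of 42.6 CPM and reached 3606 CPM in cell 37. The pseudogenes *Gm10925* and *Gm29216* had their highest values, 8851 and 3159 CPM, in cell 23. *Qpct*, which encodes glutaminyl cyclase, reached 10 CPM in 24 of the 50 cells (7 in the lower and 17 in the upper set). Its median was 1.45 and its highest value 1880 CPM, and it reached 10 CPM in 7 of 55 P14_WT IHCs. *Gm1113* went the other way, at 10 CPM or more in 17 of 50 cells at P30 and in 46 of 55 at P14. Of those 17 cells, 15 had totals in the lower set and 2 in the upper, and the means of the sets were 339 and 51.1 CPM. *Cubn*, an endocytic receptor gene, reached that level in 18 cells at P30 (13 in the lower and 5 in the upper set) and 38 at P14. *Spon2* did so in 18 cells (14 and 4). *H4c3* and *Rnmt* reached 10 CPM in 30 cells each, *Gas2* in 24, *Gsn* in 18 and *Gsdme* in 16. For *H4c3* these were 18 cells of the lower and 12 of the upper set, with means of 303 and 34.4 CPM. *Gjb6* and *Sparc*, expressed in supporting cells and in connective tissue, reached 10 CPM in 15 and 19 cells. Sex-linked genes were among the first 20 as well, with *Eif2s3y* and *Ddx3y* at 10 CPM or more in 15 cells each. *Ocm* had a CV of 1.31.

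The lower and upper sets of totals differed in a limited number of genes. Of 3541 genes, 119 (3.36%) had an at least 2-fold higher mean CPM in the upper set and 89 (2.51%) an at least 2-fold lower one, and the median log2 ratio was 0.09. Only 4 genes (0.113%) had values that did not overlap between the sets. *Ftl1* (ferritin light chain) was at 171 to 886 CPM in the lower and 1234 to 2573 in the upper set, and *Pcp4*, a calmodulin regulator, at 219 to 1008 and 1086 to 2534. *Gm15459* was at 116 to 1154 CPM in the lower set and had a lowest value of 8.89 and a median of 16.5 in the upper, and *mt-Nd2* at 8417 to 40540 and 3318 to 6667. The P14_WT IHCs also fell into sets of 16 and 39 cells on either side of the same gap in totals. There *Ftl1* again did not overlap, with at most 1332 CPM in the lower and at least 1473 in the upper set. *Rpl35*, a ribosomal protein gene, had log2 ratios of upper over lower of 2.45 at P30 and 2.33 at P14, *Serf2* of 2.30 and 2.06, and *Ost4* of 2.05 and 1.99. Of the 119 genes, 99 had a mean of at least 50 CPM at P14, where 16 were past 2-fold the same way and 1 the opposite way. Of the 89, 72 did, with 7 the same way and 2 the opposite way.

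Immediate-early genes, which respond within minutes to activity and to cell handling, differed between the sets at P30. Of 10 such genes above 50 CPM on average, 6 were at least 2-fold lower in the upper set, and the median log2 ratio was -1.35 (0.42 at P14, 0.09 over all genes at P30). *Fos* was at 1202 ± 797 CPM in 23 cells of the lower set and 243 ± 232 CPM (SD) in 27 of the upper, with highest cells of 3700 and 888. *Egr1* was at 1386 ± 919 and 237 ± 330 CPM. *Fosb*, *Ier2*, *Junb* and *Jun* had log2 ratios of -2.20, -2.27, -1.67 and -1.03. At P14 the corresponding ratios were 0.92 for *Fos*, -0.49 for *Egr1*, 0.94 for *Fosb*, 1.55 for *Ier2*, 0.49 for *Junb* and 0.00 for *Jun*. The summed level of the 23 genes ranged from 67.4 to 10918 CPM in the lower set, with a median of 5091, and from 91.9 to 4274 in the upper set, with a median of 1645. The ranges overlapped, and the mitochondrial share, the totals and the order of the cell numbers moved with these sets. So did sex-linked reads. In the lower set 11 cells had *Xist* only and 10 the Y-linked genes only, against 21 and 5 in the upper set. The part of each of these in the differences cannot be told apart. Of 11 mitochondrial genes, 3 were at least 2-fold lower in the upper set (median log2 ratio -0.81 at P30 and -0.86 at P14). *Ocm* was at 1442 ± 1371 CPM in the lower and 423 ± 681 CPM (SD, 23 and 27 cells) in the upper set. For the 5 IHC markers the count past 2-fold was 0, beside 3.36% higher and 2.51% lower over all 3541 genes. With shares this low, 0 of 5 is near the background. *Slc17a8* was at 1700 ± 509 CPM in the lower and 1041 ± 348 CPM (SD) in the upper set.

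**Figure D3:**
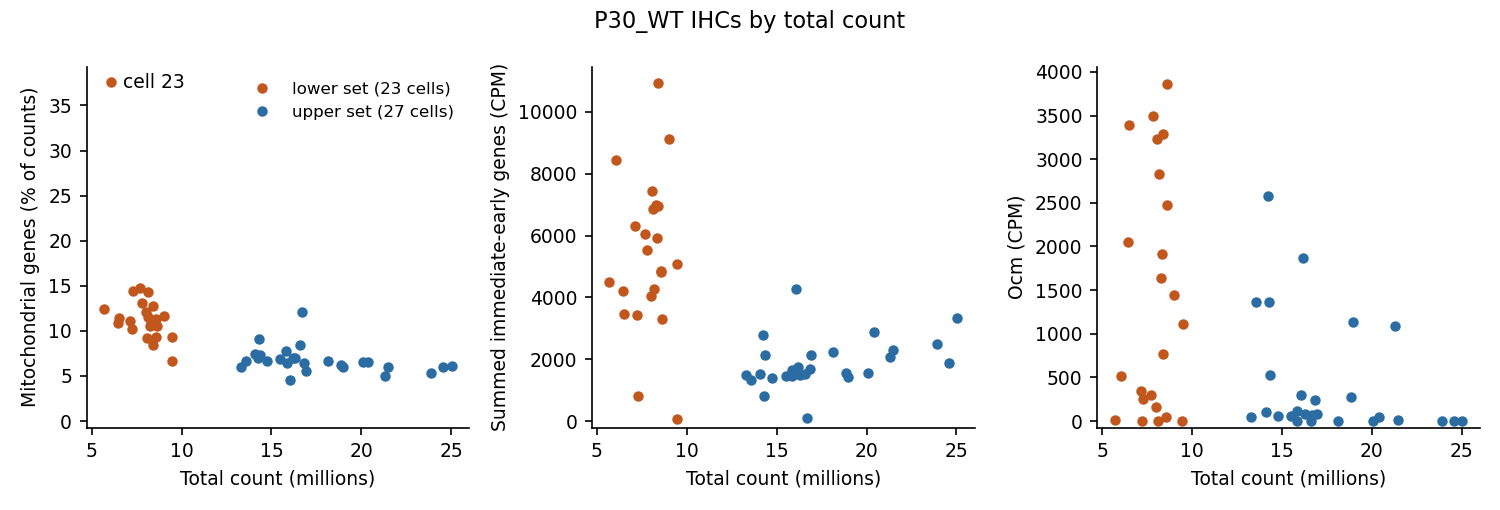
Mitochondrial share of counts in percent, summed CPM of 23 immediate-early genes, and CPM of *Ocm*, each on a vertical axis, against the total count, with 1 point per P30_WT IHC coloured by set. The lower set holds the cell with 37.6% mitochondrial counts and the highest sums of immediate-early genes, up to 10918 CPM against 4274 in the upper set.

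Genes that varied together were sought as groups of at least 5 genes with high mutual correlation of log2(CPM + 1) over the 50 cells, among the 3319 genes that averaged 50 CPM or more and were detected in at least 40 cells. The points of these correlations are cells that share mice, totals and library batches to an unknown degree, so the values are descriptions. Over all gene pairs the median r was 0.0173. There were 27 groups with 301 genes, and many rested on 1 cell. The largest, 71 genes including *Eif5a*, *Ndufb4*, *Ndufc1* and *Sdhb*, had a mean r of 0.614 that was 0.0813 without cell 23. A group of 27 genes (median length 7499 bases) with *Malat1*, *Ptprq*, *Loxhd1* and *Tmc1* had 0.554, and 0.0450 without cell 11. A group of 12 genes with *Hdac3*, *Lmo1* and *Tuba8* had 0.594, and 0.0209 without cell 37. In all, 9 groups lost more than 0.2 of their mean r without 1 cell. Other groups followed the sets of totals. The second group, 50 genes with *Pcp4*, *Ftl1*, *Rpl35*, *Ost4* and *Selenow*, had a mean r of 0.593 over all cells, but 0.393 within the lower and 0.197 within the upper set. A group of 12 genes with *mt-Nd4*, *mt-Nd2*, *mt-Co1*, *Gm23935* and *Gm15459* had 0.728, with 0.376 and 0.238 within the sets.

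In 6 groups the mean r was at least 0.5 within each set. By within-set ranks without cell 23, however, 5 of them had a mean rho of 0.00906 to 0.174, among them a group with *Psmc5*, *Ro60* and *Rps16* (0.00906) and a group with *Vdac2*, *Glrx5* and *Hmgb1* (0.174). The other, 5 genes with *Ppia*, its near-identical pseudogene *Gm10123*, *S100a1*, *Bex3* and *Rtraf* had a mean r of 0.665 and 0.653 in the lower and upper set. Ribosomal protein genes *Rps29*, *Rpl37a*, *Rpl37*, *Rps14*, *Rps25* and *Rpl36* had 0.642 and 0.430. Chaperone and translation genes *Cacybp*, *Cct7*, *Eif1*, *Hspa8*, *Hsp90ab1* and *Hnrnpk* had 0.591 and 0.491. In the P14_WT IHCs the mean within-set rank correlation of these 3 groups was 0.167, 0.316 and 0.192, against 0.478, 0.468 and 0.435 at P30.

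**Figure D4:**
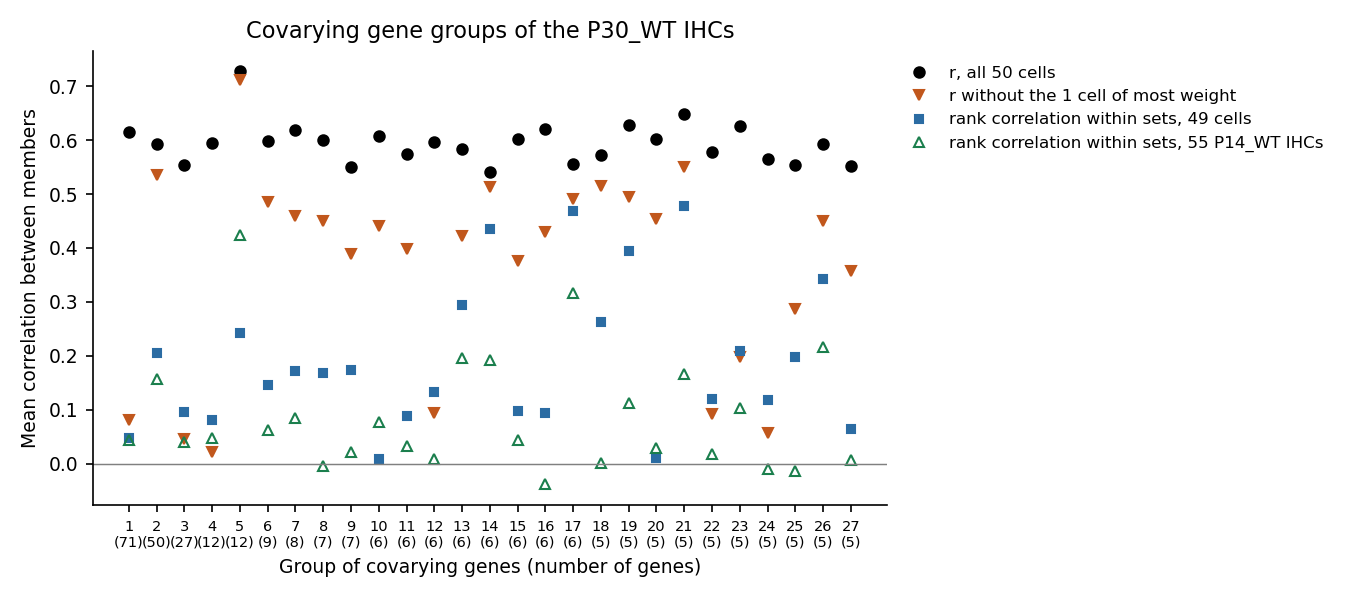
Mean correlation between members (vertical axis, unitless) for each of the 27 groups of covarying genes (horizontal axis), computed over all 50 cells, without the 1 cell of most weight, by ranks within the sets of totals in 49 cells, and by the same ranks in 55 P14_WT IHCs. All 27 lie above 0.5 over all cells, several fall below 0.1 without 1 cell, and the within-set values are lower for every group.

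With ranks within each set and without cell 23, 3 groups with 15 genes were found over 49 cells. The first held *Ppia*, *Gm10123*, *Skp1a*, *S100a1* and *Bex3* (mean rho 0.588, and 0.247 at P14). The second held *mt-Cytb*, *mt-Nd4*, *mt-Nd2*, *mt-Co1* and *mt-Nd1* (0.637, and 0.786 at P14). The third held *Ocm* with *Prxl2a*, *Dbi*, *Ptn* and *Pttg1ip* (0.549, and 0.176 at P14). *Prxl2a*, a peroxiredoxin-like gene, had the highest rho with *Ocm*, 0.72 at P30 and 0.64 over the 55 cells at P14. The other partners were weaker at P14, with *Dbi* at 0.59 and 0.24, *Pttg1ip* at 0.57 and 0.11, and *Ptn*, a secreted growth factor gene, at 0.55 and -0.16. *S100a1* had 0.61 and 0.37. Some genes ran opposite to *Ocm*, among them *Lrrc10b* (-0.64 at P30 and -0.04 at P14) and *Map4k4* (-0.60 and -0.58). Others were *Gapdh*, the glycolytic enzyme gene (-0.61 and -0.31), *Pvalb* (-0.57 and 0.24), *Calb2* (-0.46 and 0.03) and *Slc7a14* (-0.44 and -0.28). Apart from the IHC markers, the genes running with or against *Ocm* were picked once their values were known. The other IHC markers did not share one direction at P30. *Slc17a8* had 0.33 and 0.01, *Tbx2* 0.06 and -0.37, *Atp2a3* -0.17 and -0.31, and *Otof* -0.24 and -0.13.

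Among the 10 pairs of IHC markers, the largest within-set rho was that of *Otof* and *Atp2a3*, 0.58 over 49 cells (0.39 over 55 cells at P14). *Otof* and *Tbx2* followed with 0.36 (0.11 at P14). *Otof* also had 0.55 with *Dnm1*, the dynamin of vesicle recycling, and 0.40 at P14. Its other partners among the 5 highest were lower at P14, namely *Myl4* (0.55 and 0.16), *Kif13b* (0.54 and 0.04) and *Osbp2* (0.53 and 0.02). *Otof* and *Slc17a8* had -0.13. *Slc7a14* had 0.58 with *Ganc*, an alpha-glucosidase gene (0.26 at P14). The r of 0.62 between *Tbx2* and *Ndufc1* became 0.10 without cell 23. *Tbx2* and *Irak1* kept 0.50 without it, and *Tbx2* and *Kcnma1* had a within-set rho of 0.48 (0.18 at P14). These partners from outside the marker list were among the 5 highest of each marker in the same P30 cells. Their values at P30 were therefore picked for being high. *Calb2* and *Gapdh* had 0.61 at P30 and 0.00 at P14. *Fos* and *Egr1* had a within-set rho of 0.25 at P30 and 0.55 at P14, although they shared the difference between sets at P30.

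P30_WT IHCs were last set beside the 55 P14_WT IHCs, to ask which genes differ between mature IHCs and IHCs just after hearing onset. Each age is 1 sample, so a difference between ages cannot be told apart from one between mice or picking sessions. Sex-linked reads differed between the ages too. With the limit of 10 CPM, 23 P14_WT IHCs had *Xist* only and 32 the Y-linked genes only, against 32 and 15 P30_WT IHCs. Of 4044 genes averaging 50 CPM or more at either age, 14 (0.346%) had an at least 4-fold higher mean at P30 and 32 (0.791%) an at least 4-fold lower one. The median log2 ratio over these genes was -0.06. With size factors from median ratios it was 0.30, and the counts became 27 higher and 17 lower. With TMM factors it was 0.02.

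**Figure D5:**
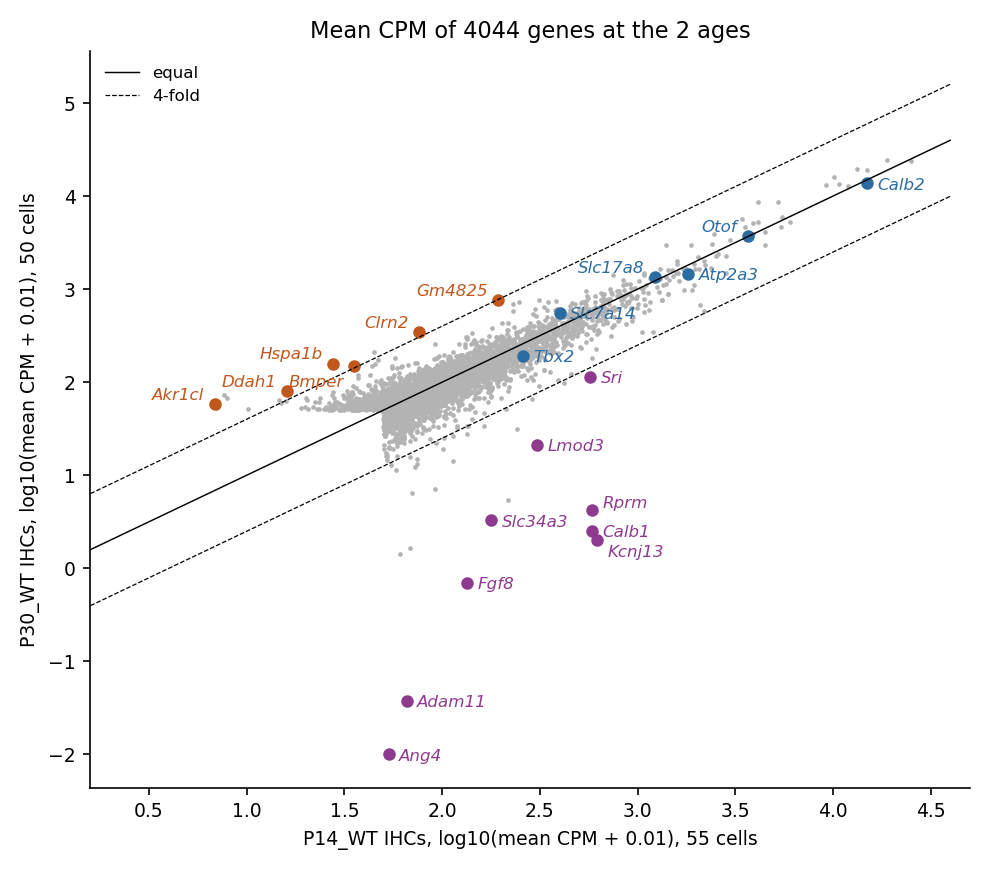
Mean CPM over 50 P30_WT IHCs against mean CPM over 55 P14_WT IHCs for 4044 genes, as log10(mean CPM + 0.01) on both axes, with dashed lines at 4-fold and named genes marked. Most genes lie near the diagonal, 32 lie below the lower line, among them *Kcnj13*, *Calb1* and *Rprm*, and 14 above the upper.

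The clearest differences were genes near 0 at P30. *Kcnj13*, an inwardly rectifying potassium channel gene, had reads in 3 of 50 P30_WT IHCs, with a highest value of 94.6 CPM, and in 55 of 55 P14_WT IHCs, with a median of 368 and a highest value of 2533. Over the summed counts it was at 1.15 CPM (95% Poisson interval 1.07 to 1.23) at P30 and 719 (718 to 721) at P14, and its mean was 308-fold lower at P30. *Calb1* had a mean of 2.51 ± 17.1 CPM over 50 cells at P30 and 583 ± 1124 CPM (SD) over 55 cells at P14, where its median was 45.8 and its highest value 5821. *Rprm*, a cell cycle inhibitor gene, was at 4.25 ± 20.0 and 585 ± 529 CPM, and *Fgf8*, the growth factor that immature IHCs make, at 0.691 ± 3.71 and 134 ± 115 CPM (SD, 50 and 55 cells). *Ang4* had 0 counts in all 50 cells at P30 and a mean of 53.4 CPM at P14, at least 195-fold lower when P30 is set to 3 counts per library. *Slc34a3*, *Mycl*, *Efhd2* and *Ucp2* were 54.5-, 42.6-, 41.7- and 40.5-fold lower, and *Lmod3*, an actin nucleator gene, 14.5-fold (21.2 against 306 CPM). For these genes the lower and the upper sets, compared separately, gave the same direction wherever P30 had a count. In contrast with *Calb1*, *Calb2* was at 14956 ± 3923 CPM at P14 against 13666 ± 5086 at P30, while *Pvalb* was 3.10-fold lower at P30 (677 ± 582 against 2099 ± 400 CPM; SD, 50 and 55 cells). *Sri* was 5.04-fold and *Slc8a1*, the sodium-calcium exchanger gene, 5.90-fold lower.

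Of the genes higher at P30, those named here had ranges that overlapped the ranges at P14. *Clrn2*, a gene needed for stereocilia, was at 346 ± 201 CPM in P30_WT IHCs and 76.5 ± 73.5 CPM at P14 (SD, 50 and 55 cells), with medians of 332 and 54.1 and highest cells of 819 and 273. Its mean was 4.52-fold higher, with log2 ratios of 2.48 between the lower sets and 2.20 between the upper sets. Among cells with *Xist* the log2 ratio was 2.59, and among cells with Y-linked genes 1.79, which is below 4-fold. *Akr1cl*, an aldo-keto reductase gene, was at 58.4 ± 65.5 and 6.84 ± 15.8 CPM (8.53-fold), *Ddah1*, which clears methylated arginines, 5.04-fold higher (log2 ratios of 1.04 between the lower sets and 2.99 between the upper), and *Bmper*, a BMP-binding protein gene, at 150 ± 132 and 35.5 ± 54.7 CPM (4.22-fold). *Rassf2* was 4.02-fold higher, with 1.00 between the lower sets, which is below 4-fold, and 2.63 between the upper. *Gm15459*, 4.27-fold higher over all cells, had a log2 ratio of 1.65 between the lower sets and -0.06 between the upper. Its log2 ratio was 0.62 among cells with *Xist* and 4.75 among cells with Y-linked genes. The pseudogene *Gm4825* was 3.97-fold and *Syne1* 3.65-fold higher (1.00 and 2.38 for *Syne1*). Among cells with Y-linked genes the log2 ratios of *Bmper*, *Rassf2* and *Gm4825* were 1.92, 1.80 and 1.40, all below 4-fold. *Akr1cl* and *Ddah1* had 2.54 and 2.69 there. Among cells with *Xist* these 5 genes had 2.44, 2.34, 2.64, 5.14 and 1.97, in the same order.

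The inducible chaperone genes *Hspa1a* and *Hspa1b* were both past 4-fold, and both had a median of 0 at P14. *Hspa1b* was at 159 ± 234 CPM at P30 and 27.6 ± 80.1 at P14 (5.75-fold), and *Hspa1a* at 67.8 ± 104 and 7.93 ± 23.7 CPM (8.55-fold; SD, 50 and 55 cells). Among cells with *Xist* the log2 ratios of *Hspa1b* and *Hspa1a* were 2.15 and 2.83, and among cells with Y-linked genes 1.62 and 3.15. Both genes are near-identical copies, and how reads that match both were counted is not stated. The division of reads between them is therefore uncertain. Their upstream sequences are shown because both genes were past 4-fold and to compare the windows, which say nothing about the transcripts. Both are the 250 bases before the RefSeq start on GRCm38.p6, with a heat shock element pair (GAANNTTC) in capitals, *Hspa1a* at chr17:34972157-34972406 and *Hspa1b* at chr17:34959239-34959488, both on the minus strand.
Hspa1a: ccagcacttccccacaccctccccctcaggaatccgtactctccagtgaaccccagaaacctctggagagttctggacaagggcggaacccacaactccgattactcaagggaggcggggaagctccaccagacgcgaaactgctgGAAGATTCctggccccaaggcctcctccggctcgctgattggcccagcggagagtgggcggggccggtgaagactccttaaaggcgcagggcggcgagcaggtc
Hspa1b: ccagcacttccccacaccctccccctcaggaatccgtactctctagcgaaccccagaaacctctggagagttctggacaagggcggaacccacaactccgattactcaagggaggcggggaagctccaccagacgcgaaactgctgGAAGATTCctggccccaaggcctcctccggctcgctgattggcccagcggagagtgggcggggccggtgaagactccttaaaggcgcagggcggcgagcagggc
Of the 250 bases, 247 (98.8%) were identical, and the element began 104 bases before the start in both. GAANNTTC, which reads the same on both strands, was in 5 of 8 heat shock genes with an entry and in 2199 of 32851 windows (6.69%). Of 10 heat shock genes compared, these 2 were past 4-fold, beside 14 of 4044 genes (0.346%) that were higher at P30. With the division of reads uncertain, the 2 copies do not count as separate members of the list. *Hsp90aa1* was at 5730 ± 1529 CPM at P30 and 3444 ± 1052 at P14, and *Hspa8* at 3378 ± 1099 and 2969 ± 1151 (SD, 50 and 55 cells).

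By role, and beside 0.346% higher and 0.791% lower over all 4044 genes, the count past 4-fold was 0 of 12 ribbon synapse genes, 0 of 18 stereocilia genes, 0 of 10 hair cell transcription factors and 0 of 5 IHC markers. With shares this low, a count of 0 in a short list is near the background. *C1qb*, an immune cell marker, had reads in 3 cells at P30 (2.35 CPM) and in 38 of 55 at P14 (26.4 ± 34.2 CPM), below the limit of 50, and its part in the results was not tested. The count past 4-fold was 1 of 12 mechanotransduction and Usher genes (*Clrn2*, higher), 2 of 13 calcium buffers and pumps (*Calb1* and *Slc8a1*, lower), and 1 of 6 potassium channel and efferent genes (*Kcnj13*, lower). Below 4-fold, *Myo7a*, the myosin of stereocilia, was at 739 ± 243 CPM at P30 and 383 ± 222 at P14, and *Igfbp5* at 2973 ± 1201 and 1406 ± 1229 CPM. *Espn*, *Actb* and *Actg1*, for espin and the cytoplasmic actins, were at 475 ± 158, 236 ± 169 and 288 ± 171 CPM at P30 against 808 ± 270, 505 ± 293 and 577 ± 266 at P14 (SD, 50 and 55 cells). For *Actb* the log2 ratio was -0.10 between the lower sets and -1.22 between the upper, and for *Actg1* -0.37 and -1.29, whereas *Espn* had -0.85 and -0.69. *Fos* was 2.98-fold higher at P30 over all cells, with log2 ratios of 3.09 between the lower sets and -0.13 between the upper. *Egr1* had 1.82 and -0.24.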

How the data were processed

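Single Tdtomato+ cells were picked by hand, their cDNA was amplified with a Smart-Seq HT kit, and each cell was sequenced as 1 library. Per the labels, the submitters' processing notes name FastQC 0.11.9, Trimmomatic 0.39, HISAT2 2.1.0, StringTie 1.3.5 and HTSeq 0.10.0. The values the authors deposited are raw counts per gene for 55291 gene symbols, aligned to GRCm38, without normalization. The annotation release, the strand setting and the handling of multimapped reads were not given in the sources used here, so near-identical copies (*Hspa1a* and *Hspa1b*, *Ppia* and *Gm10123*, *Ubb* and *Ubb-ps*, *Hba-a1* and *Hba-a2*, and pseudogenes) and overlapping genes are uncertain.

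CPM is the count over the total of the cell times 1000000. TPM used union exon lengths of GENCODE M21, matched for 53591 genes. Groups followed the labels. Results for some genes are not reported here. Sets of totals were split at the widest gap in the totals of all 151 cells. Named genes were the members of the gene lists, the 20 genes first by CPM, TPM, highest CV and lowest CV, the leading genes of each covarying group, the 5 most correlated with each IHC marker, and the 10 with the largest ratio in each direction between ages, restricted to genes found in 80% or more of cells at the age with the higher mean. Genes shown for the sets of totals, *Ocm* partners, and genes of the lists between ages were picked once their values were known. The members and lists were chosen with earlier results of these data known. Covarying groups came from average-linkage clustering at a height of 0.5. Genes between ages were compared by ratio only, at 4-fold (2-fold between sets). The steps were tested on simulated data with planted changed genes and a planted covarying group, as a check of the code. The simulation held no difference between sets and no outlying cell, so it does not test their part in the groups found. Alternatives were other scalings (edgeR 4.0.16 TMM and DESeq2 1.42.0 size factors in R 4.3.3), filters, pseudocounts, Spearman ranks, thinned counts, and omission of sets or cells. Figures used matplotlib 3.10.9, and other steps pandas 2.3.3, numpy 2.4.6 and scipy 1.17.1 in Python 3.11.15.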

Additional observations from a re-analysis of the deposited data

How the results depend on the processing

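The mean CPM of each IHC marker, the first 20 genes by CPM and the number detected in all cells stayed within 1 SD or 1.5 times of the values reported under each alternative tried. The count of genes with a CV over 1 (873) was 5529 with a mean of at least 10 CPM and 60 with at least 100. Of the 20 most variable genes, 0 and 7 stayed in the first 20 under these filters, 10 in the lower set alone, 7 in the upper set alone, and 9 by the SD of log2(CPM + 1). The 301 genes in 27 covarying groups became 91 in 7 with Spearman rho, 172 in 13 with log2(CPM + 10), 15 in 3 with within-set ranks without cell 23 (chosen after seeing the data), 488 genes with median-ratio size factors, 2161 in 221 in the lower set and 1285 in 175 in the upper, where fewer cells entered each r.

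Between ages, the 14 higher and 32 lower genes became 27 and 17 with median-ratio size factors, 105 and 141 with a mean of at least 10 CPM, 8680 and 5222 without a filter, 98 and 179 at 2-fold, and 32 and 60 in the lower sets alone. The lower count was 119 by median CPM and 50 in cells with Y-linked genes above *Xist*. Apart from the filters and folds, the cause was not tested. Without each cell in turn, the genes in all cells numbered 1374 to 1500, those with a CV over 1 842 to 894, the variable genes kept 17 to 20, the covarying genes 228 to 362 in 23 to 37 groups, the genes higher at P30 12 to 16 and lower 30 to 34. No paired analysis was possible because no result comes from a test and the cell numbers only name cells. Depth limits a count of 0 to at most 0.120 to 0.527 CPM per cell.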
